A study of Mus musculus with 10 samples.

Results

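Calsyntenins, neurexins and neuroligins were followed here by 8 genes: *Clstn1*, *Clstn2* and *Clstn3* of the calsyntenins, *Nrxn2* and *Nrxn3* of the neurexins, and *Nlgn1*, *Nlgn2* and *Nlgn3* of the neuroligins. They were found by symbol among the 55385 gene identifiers of the tables. The genes were chosen with results of the same comparison known, so their levels and differences are given as a description and carry no test. RNA had been sequenced from 2 mouse melanoma lines, with 5 libraries of each, to ask how passage through the liver alters melanoma cells. WT31 is the parental line, which carries mutant NRAS and came from Tyr::NrasQ61K/°; INK4a-/- mice. WT31_P5IV was obtained from it by 5 rounds of intravenous injection and outgrowth in the liver. Both lines share this genotype and were grown untreated and sub-confluent in RPMI with serum, so the RNA comes from cultured cells and not from metastases. WT31_P5IV is a single subline, and the labels call the libraries biological replicates without naming separate cultures, so p-values measure only the spread between these libraries, which may be technical.

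Neurexins are transmembrane proteins of the presynaptic membrane, and neuroligins are their best known partners on the postsynaptic side. Together they hold the sides of a synapse in register and recruit the scaffolds of each. Calsyntenins are type I membrane proteins with cadherin repeats. They link vesicle cargo to kinesin, are shed by surface proteases, and in the case of calsyntenin-3 promote synapse formation through neurexins. Melanocytes descend from the neural crest, and several of these genes are also read outside the nervous system.

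Libraries held 24255389 to 25750639 estimated counts, and 13620 genes had enough counts to be tested. At this depth 3 counts, taken as the limit of detection, came to 0.114 to 0.129 CPM, counts scaled to library size, a limit that covers counting error only. In edgeR's quasi-likelihood test with Benjamini-Hochberg adjustment, 34.6% of all tested genes were higher and 33.9% lower in WT31_P5IV. Past a log2 fold change of 1, 5.49% were higher and 3.69% lower. All 7 melanocyte markers were detected, with a summed level of 17046 to 18443 CPM in WT31 and 22228 to 25730 CPM in WT31_P5IV. Among them the mean levels of *Dct* (5893 and 10233 CPM) and *Pmel* (1860 and 4330 CPM) were higher in WT31_P5IV, and that of *Tyrp1* (3041 and 1564 CPM) was lower. Of 8 neuron markers 5 were detected, at 532 to 640 CPM summed in WT31 and 386 to 431 CPM in WT31_P5IV, while the defining markers *Rbfox3*, *Snap25* and *Syt1* were at no more than 3 counts in every library. Schwann cell and glial markers summed to 488 to 513 CPM in WT31 and 312 to 325 CPM in WT31_P5IV. The part of other cells in the results was not tested, and in bulk RNA fewer expressing cells and less RNA per cell cannot be told apart.

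Of the 8 genes, 3 passed the filter on low counts, *Clstn1*, *Clstn3* and *Nlgn2*. All 3 were called higher in WT31_P5IV and 0 lower, against the 34.6% and 33.9% above, and 2 of them lay past a log2 fold change of 1. Since the genes were chosen on this contrast, nothing is read from these counts. The other 5 were too low to be tested, and *Clstn2*, *Nrxn3* and *Nlgn1* did not exceed 1 count in any library. Per transcript length, the order of the mean levels in both lines was *Clstn1*, then *Nlgn2*, then *Clstn3*.

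*Clstn1* encodes calsyntenin-1, the family member that binds kinesin light chain and carries vesicles along microtubules. The gene lies on the plus strand at chr4:149586468-149648899 (GRCm38). Its levels were 172, 169, 166, 172 and 170 CPM in the WT31 libraries. In the WT31_P5IV libraries they were 368, 387, 375, 336 and 347 CPM. The groups did not overlap, and the WT31 libraries lay much closer together than those of WT31_P5IV. The means were 170 ± 2.56 CPM (SD, n = 5) and 363 ± 20.96 CPM (SD, n = 5), a 2.14-fold difference, and the fitted log2 fold change was 1.10 with a standard error of 0.04. Each value rests on 4228 to 9331 estimated counts. In TPM, kallisto's relative abundances, which correct for transcript length, *Clstn1* stood at 61.9 ± 2.07 in WT31 and 117 ± 4.51 in WT31_P5IV (SD, n = 5 each). Among tested genes this moved it from the 81.2 to the 91.8 percentile of mean TPM.

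*Clstn3* encodes calsyntenin-3, which binds neurexins, and lies on the minus strand at chr6:124430759-124464794. The WT31 libraries held 2, 4, 2, 6 and 4 estimated counts of it. The WT31_P5IV libraries held 73, 63, 57, 70 and 72. The gene was thus close to the limit of detection in WT31 and well above it in each WT31_P5IV library. The mean levels were 0.140 ± 0.0656 CPM and 2.80 ± 0.313 CPM (SD, n = 5 each), a 19.9-fold difference. The fitted log2 fold change was 4.31 with a standard error of 0.23, and 3.46 on log2(TPM + 0.1), a scale that understates the change of low genes. In TPM, *Clstn3* had 0.192 ± 0.121 in WT31 and 2.94 ± 0.638 in WT31_P5IV, from the 1.84 to the 23.3 percentile of tested genes. Summed markers of some other cells were also higher in WT31_P5IV, at levels like that of *Clstn3*. The 4 leukocyte and macrophage markers summed to 0.757 to 2.18 CPM in WT31 and 3.38 to 5.00 CPM in WT31_P5IV, mostly *Cd68* (means of 1.37 and 3.73 CPM), while the defining *Ptprc* and *Adgre1* were at no more than 3 counts in every library. The 5 fibroblast and stellate cell markers summed to 1.61 to 2.10 CPM and 3.33 to 3.82 CPM, with higher means of *Col1a1* (0.868 and 1.73 CPM), *Acta2* (0.275 and 0.758 CPM) and *Col3a1* (0.0316 and 0.527 CPM), while those of *Pdgfrb* (0.520 and 0.4599 CPM) and *Dcn* (0.157 and 0.134 CPM) were not higher. The 4 hepatocyte markers summed to 0.265 to 0.554 CPM and 0.483 to 1.18 CPM, ranges that overlap, with *Alb* at 0 counts in WT31 and 0 to 9 in WT31_P5IV and *Apoa1* at 0 and 0 to 4. The part of these cells in the *Clstn3* difference was not tested. *Clstn3* showed the largest fold difference of the 8 genes while staying at a small part of the *Clstn1* level.

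*Nlgn2* encodes neuroligin-2, the neuroligin of inhibitory synapses, and lies on the minus strand at chr11:69823122-69837784. Its estimated counts were 498, 528, 559, 552 and 570 in WT31. They were 709, 663, 673, 614 and 584 in WT31_P5IV. The CPM of the groups did not overlap, although the gap between the nearest libraries was narrow. The means were 21.1 ± 1.32 and 27.1 ± 2.21 CPM (SD, n = 5 each), with a log2 fold change of 0.36 and a standard error of 0.06. In TPM the means were 6.57 ± 0.544 and 7.12 ± 0.616, and the ranges of 5.86 to 7.12 and 6.59 to 8.14 overlapped. On log2(TPM + 0.1) its log2 fold change was 0.11, where the median over all genes moved by -0.17 against the count scale.

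**Figure D1:**
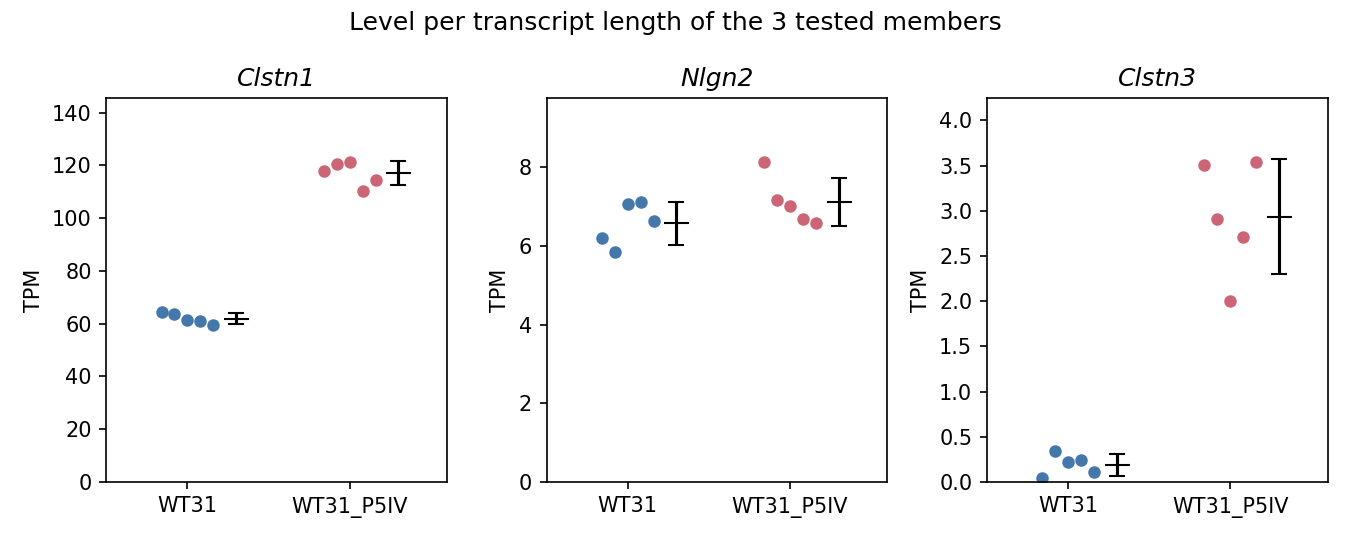
TPM of *Clstn1*, *Nlgn2* and *Clstn3* in each of the 5 WT31 and 5 WT31_P5IV libraries (points, each panel with its own axis from 0), with the mean and SD beside them. *Clstn1* and *Clstn3* are separated between the lines, whereas the *Nlgn2* ranges of 5.86 to 7.12 and 6.59 to 8.14 overlap.

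*Nlgn3* encodes neuroligin-3, which acts at both excitatory and inhibitory synapses, and lies at chrX:101299168-101325963 on the plus strand. The WT31 libraries had 0, 4.5, 4.1, 0 and 3.6 estimated counts. The WT31_P5IV libraries had 10.4, 4.9, 10.7, 9.8 and 13.9. The groups were separated by less than 1 count between the highest WT31 and the lowest WT31_P5IV library. Mean levels were 0.101 ± 0.0930 and 0.415 ± 0.130 CPM (SD, n = 5 each), a ratio of 4.12. These counts are uncertain, since 41.9% of the 31-base words in *Nlgn3* transcripts also occur in other genes, 40.9% in the overlapping readthrough transcript *Gm21986*. *Gm21986* itself had 24.8 to 45.7 estimated counts in WT31 and 42 to 74.9 in WT31_P5IV, with a log2 fold change of 0.87 and a standard error of 0.19.

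*Nrxn2* encodes neurexin-2 and lies at chr19:6418731-6544169 on the plus strand. Its counts were 5, 7, 5, 4 and 0 in WT31. In WT31_P5IV they were 1, 2, 5, 2 and 2. The groups overlapped, with means of 0.163 ± 0.0990 and 0.0992 ± 0.0598 CPM (SD, n = 5 each), and a difference was not detectable at this depth. The gene overlaps *Slc22a12* on the opposite strand, and the strand setting of the counting is not given in the sources used here. *Nrxn3* (neurexin-3, chr12:88722876-90334935), *Clstn2* (calsyntenin-2, chr9:97444395-98033181) and *Nlgn1* (neuroligin-1, an excitatory synapse protein, chr3:25426215-26332460) each had 0 or 1 count in every library of both lines. For these 3 genes a level below the 3-count limit cannot be told from none.

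**Figure D2:**
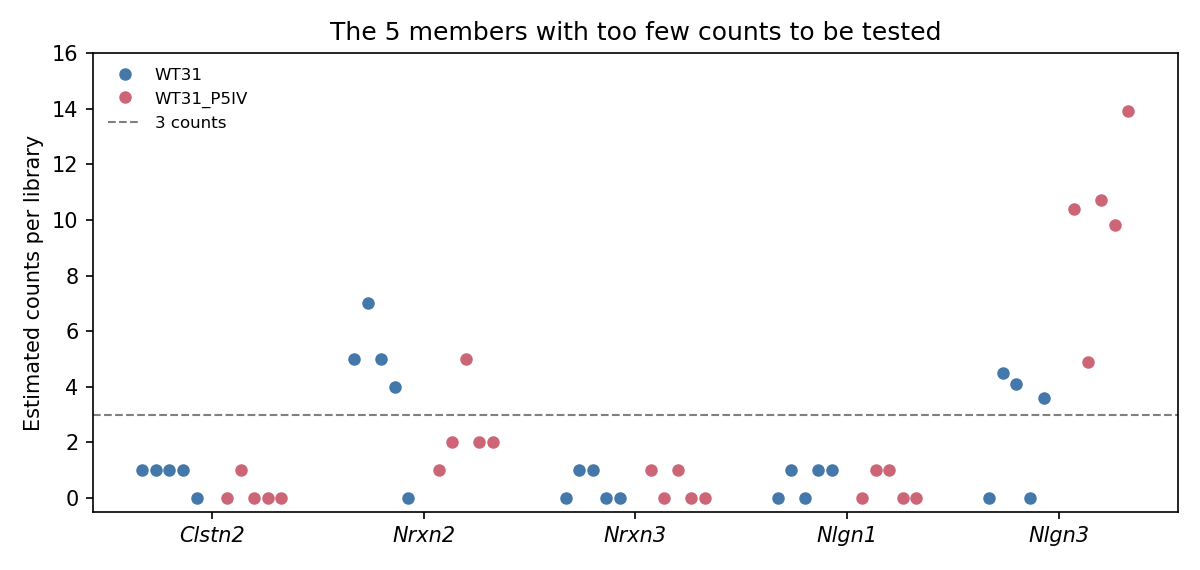
Estimated counts per library of the 5 genes that were not tested (points, WT31 left and WT31_P5IV right for each gene), with a dashed line at 3 counts. *Nlgn3* reaches 13.9 counts in WT31_P5IV, *Nrxn2* at most 7, and the other 3 genes at most 1.

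In the calsyntenins and in the neuroligins 1 gene accounted for nearly all of the RNA. The summed TPM of the calsyntenins was 62.1 ± 2.08 in WT31 and 119.9 ± 4.36 in WT31_P5IV (SD, n = 5 each). *Clstn1* made up 99.4 to 99.9% of it in WT31 and 97.0 to 98.4% in WT31_P5IV, where *Clstn3* made up most of the rest. The neuroligins summed to 6.61 ± 0.510 and 7.20 ± 0.604 TPM, of which *Nlgn2* made up at least 97.7% in each library. The neurexins measured here summed to 0.120 ± 0.103 TPM in WT31 and 0.0385 ± 0.0229 TPM in WT31_P5IV (SD, n = 5 each), values that rest on a few counts and in which *Nrxn2* was not the higher gene in every library. Both lines thus held calsyntenin and neuroligin RNA with hardly any *Nrxn2* or *Nrxn3*.

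The ratio of estimated count to TPM gives the mean length, weighted by TPM, of the transcripts to which kallisto assigned a gene's reads. A line through 531 to 553 genes with 1 annotated transcript gave the scale in each library, and every one of these genes lay within 5% of it. For *Clstn1* the mean length was 4186 to 4326 bases in WT31 and 4188 to 4330 in WT31_P5IV, between its annotated transcripts of 3319 and 4459 bases and nearer the longer one. The mix of *Clstn1* transcripts was therefore alike in length in both lines. For *Nlgn2* it was 4648 to 5464 bases in WT31 and 5052 to 5349 in WT31_P5IV, against annotated transcripts of 5003 and 5568 bases.

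For *Clstn3* in WT31_P5IV the mean length was 1334 to 1725 bases with a median of 1388, well under the 4014 and 3703 bases of its full-length coding transcripts and above its other annotated transcripts of 366 to 765 bases. Such a mean needs short and long transcripts together, or a transcript that GENCODE M21 does not list, since the tables carry a later version of the *Clstn3* identifier than that release. In WT31 the mean was 746 to 3181 bases on 2 to 6 counts. A shorter product of the gene is known from adipocytes. None of 4 adipocyte markers exceeded 3.3 estimated counts in any library. Marker counts do not show whether these melanoma cells make that product, which was not tested. Totals per gene do not show which transcripts were present.

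For the lowest genes single transcripts could be read off, to within 1 base of the annotated length. All 12 *Nrxn2* counts of WT31_P5IV sat on a retained-intron transcript of 4456 bases, which is not annotated as coding, whereas the mean in WT31 was 1894 to 3828 bases. The *Clstn2* counts sat on a transcript of 4174 bases and those of *Nlgn1* on one of 11807 bases. *Nlgn3* matched a transcript of 8004 bases in 2 WT31 and 3 WT31_P5IV libraries.

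**Figure D3:**
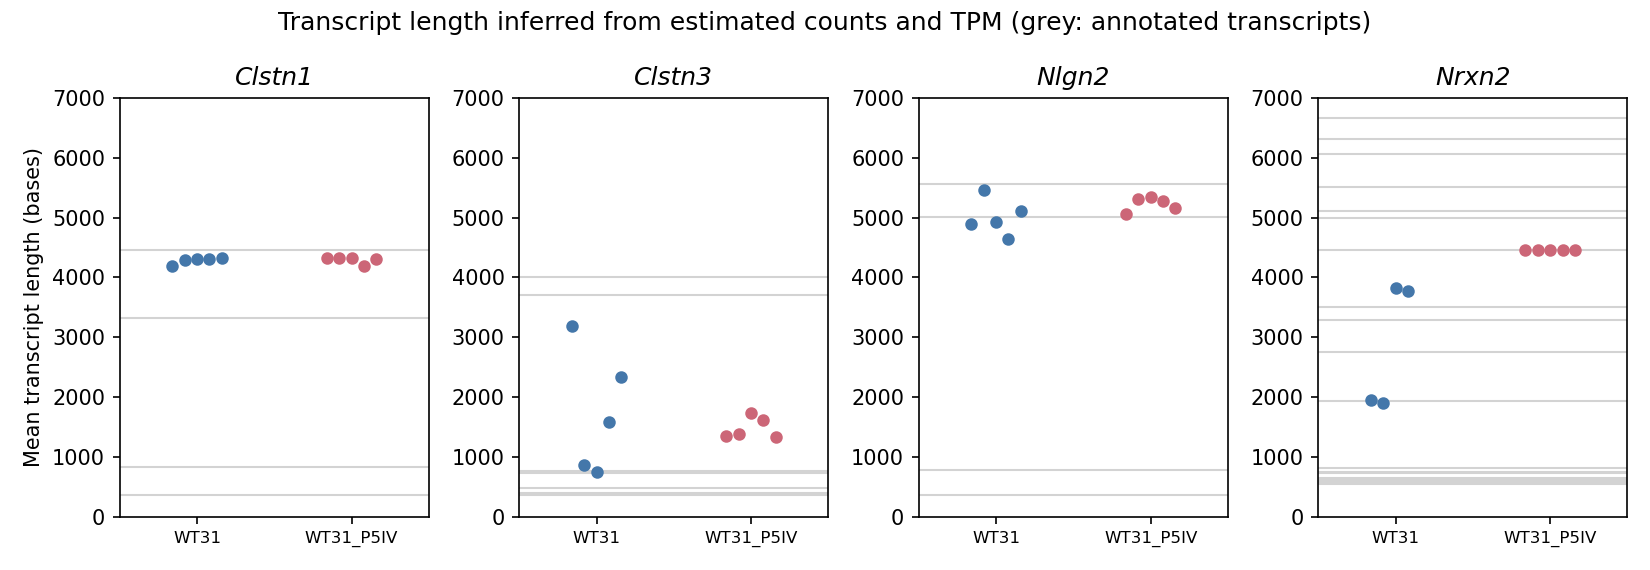
Mean transcript length in bases behind the values of 4 genes in each library (points), with grey lines at the lengths of the annotated transcripts. *Clstn1* stays near 4459 bases in both lines, *Clstn3* lies at 1334 to 1725 bases in WT31_P5IV, and *Nrxn2* sits at 4456 bases in the WT31_P5IV libraries.

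Sequence shared with other genes was small for the 3 tested genes. Of their 31-base words in GENCODE M21, 0.0859% of those in *Clstn1*, 0.0346% in *Nlgn2* and 0% in *Clstn3* occur in another gene. The deposited *Clstn3* values carry a later version of its identifier, for which this share may differ. The shares were 0.531% for *Clstn2*, 3.30% for *Nrxn3*, 5.92% for *Nrxn2* and 9.05% for *Nlgn1*. Apart from *Nlgn3*, the genes are thus mostly told apart by sequence.

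Promoters of the 2 calsyntenins that differed most are shown because their makeup is unlike. They were taken from a table of RefSeq promoters (GRCm38.p6), in which 6 of the 8 genes were matched, as 250 bases before to 50 after a start. *Clstn1* has 1 entry at chr4:149586218-149586517 on the plus strand. *Clstn3* has 2 entries on the minus strand, an outer one at chr6:124464735-124465034 and an inner one at chr6:124462695-124462994. The sequences run 5′ to 3′, and capitals mark matches, on either strand, to the motifs searched.
Clstn1: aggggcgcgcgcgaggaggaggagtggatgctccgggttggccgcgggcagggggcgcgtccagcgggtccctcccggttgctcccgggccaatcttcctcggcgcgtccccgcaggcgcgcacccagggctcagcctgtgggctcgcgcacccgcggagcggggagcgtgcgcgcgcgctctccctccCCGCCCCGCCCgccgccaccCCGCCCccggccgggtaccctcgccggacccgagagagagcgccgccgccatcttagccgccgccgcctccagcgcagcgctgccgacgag
Clstn3 outer: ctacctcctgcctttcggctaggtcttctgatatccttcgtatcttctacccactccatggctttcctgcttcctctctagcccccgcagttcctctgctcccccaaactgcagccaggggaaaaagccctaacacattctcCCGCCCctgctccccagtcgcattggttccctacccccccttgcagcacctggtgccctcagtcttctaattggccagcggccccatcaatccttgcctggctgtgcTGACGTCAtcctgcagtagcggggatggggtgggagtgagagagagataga
Clstn3 inner: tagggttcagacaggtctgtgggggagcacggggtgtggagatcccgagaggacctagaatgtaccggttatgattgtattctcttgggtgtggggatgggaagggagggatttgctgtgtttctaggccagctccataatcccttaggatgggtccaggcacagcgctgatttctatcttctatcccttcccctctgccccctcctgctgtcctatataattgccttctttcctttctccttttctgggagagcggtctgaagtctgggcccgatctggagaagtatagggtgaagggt
The motifs were the GC box GGGCGG, the E-box CACGTG, the M-box core CATGTG, the AP-1 site TGANTCA, the TATA box TATAAA and the cAMP response element TGACGTCA.

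The *Clstn1* promoter is rich in CpG, with 79.7% GC and 48 CpG, both at the 98.8 percentile of 32851 promoters, and it holds 3 GC boxes, of which a pair overlap. The outer *Clstn3* promoter has 58.3% GC, 8 CpG, 1 GC box and 1 cAMP response element, and the inner one has 53.0% GC, 6 CpG and no match. The *Nlgn2* promoter has 68.7% GC, 26 CpG and 3 GC boxes, and that of *Clstn2* has 43 CpG, 1 GC box and 1 cAMP response element. The medians over all promoters were 52.7% GC and 7 CpG. The GC box occurs in 35.7% of promoters, the cAMP response element in 1.79%, CACGTG in 7.15%, CATGTG in 14.2%, TGANTCA in 7.81% and TATAAA in 13.6%. A match is a description of these letters and not a bound site.

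Genes beside the 3 tested members were read for comparison. Within 100 kb of *Clstn3* lie 11 genes, of which 1 was tested, *Pex5*, a peroxisomal import receptor 15692 bases away. *Pex5* rose from 35.8 to 46.8 CPM, with a log2 fold change of 0.38 (adjusted p = 1.07e-05, edgeR), far less than the 4.31 of *Clstn3*. Among the untested neighbours *C1ra*, a complement protease 47611 bases away and chosen after its values were seen, had 2 to 7 counts in WT31 and 9 to 20 in WT31_P5IV, with means of 0.156 and 0.633 CPM. Chromosome 6 as a whole had a median log2 fold change of 0.28 over 677 tested genes, against 0.01 over all genes. Of all tested genes, 34.6% rose and 33.9% fell, and nothing is read from the few neighbours counted here. Around *Clstn1*, 5 genes were tested, of which 2 rose and 1 fell. Around *Nlgn2*, 11 were tested, of which 5 rose and 4 fell. Their chromosomes had medians of -0.01 and 0.00.

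By the root mean square difference in log2 CPM from the WT31 mean over the 10 libraries, the genes most like *Clstn3* were *Ptk7*, a Wnt co-receptor, at 0.288, *Gpm6a*, a neuronal membrane glycoprotein, at 0.294, and *Nckap1l*, a blood cell actin regulator, at 0.347. *Ptk7* had 95 to 126 counts in WT31 and 1039 to 1138 in WT31_P5IV. *Gpm6a* and *Nckap1l* had at most 1 count in WT31, with 31 to 38 and 22 to 32 counts in WT31_P5IV. The measure added 0.1 CPM to each level before the logarithm, which narrows the difference of genes at 0 or 1 count.

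The genes of the pathway around the 8 were read from 8 lists of 118 genes, of which 74 were tested. Among these 29 rose (39.2%) and 28 fell (37.8%), near the 34.6% and 33.9% of all genes, with a median log2 fold change of 0.02. Past a log2 fold change of 1, 3 rose (4.05%) and 10 fell (13.5%), against 5.49% and 3.69% of all genes. Under a filter of 10 counts per library, which drops genes near 0 in either line, 6 in place of 13 lay past it. These were *Tenm2* higher and *Igsf21*, *Flrt3*, *Lin7a*, *Epb41l3* and *Dlg4* lower, beside 701 of 12350 genes in all. The 701 were not split by direction, so no direction is read from the 6. The adjusted p of the 13 genes was at most 0.00152 (edgeR). The lists were chosen with earlier results of these data known, so their shares are a description and nothing is read from them. Of the 44 genes not tested, 29 were at or under 3 counts in every library.

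Of 23 neurexin ligands and partners 9 were tested. Of these, 5 rose (55.6%) and 3 fell (33.3%), against 34.6% and 33.9% of all tested genes. *Cbln2*, a secreted bridge from neurexin to glutamate receptors, rose from 0.375 ± 0.0895 to 1.27 ± 0.217 CPM (SD, n = 5 each, log2 fold change 1.76, edgeR adjusted p = 3.90e-06). *Dag1*, the dystroglycan that neurexins bind, rose from 506 to 779 CPM, and *Igsf21*, a neurexin-2 ligand, fell from 31.4 to 7.80 CPM. Both neuroligin inhibitors were tested, 0 rose and 1 fell, too few genes to set against the shares of all tested genes. *Mdga1* had 0.781 and 0.784 CPM and did not pass the test. *Mdga2*, which masks neuroligins from neurexins, fell from 3.32 ± 0.209 to 0.376 ± 0.104 CPM (SD, n = 5 each, log2 fold change -3.14, edgeR adjusted p = 5.41e-10), beside the higher *Nlgn2*.

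Of 29 other synaptic organizers 15 were tested. Of these, 8 rose (53.3%) and 5 fell (33.3%), against 34.6% and 33.9% of all tested genes. Only 1 of the 8 that rose lay past a log2 fold change of 1, against 4 of the 5 that fell. *Tenm3*, a teneurin, fell from 108 to 160 counts in WT31 to at most 2 in WT31_P5IV, at least 41.5-fold lower with 3 counts as the floor. *Ptprf*, the receptor phosphatase LAR, fell from 5.37 to 0.176 CPM. *Flrt3* fell from 11.7 to 4.94 CPM and *Lrfn3* from 0.664 to 0.326 CPM, while *Tenm2* rose from 13.5 to 27.4 CPM. *Slitrk6*, chosen after its values were seen, was not tested and had 10 to 20 counts in WT31 and 0 in WT31_P5IV.

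Of the scaffolds on the neurexin side 13 were tested, 7 fell (53.8%) and 2 rose (15.4%), against 33.9% and 34.6% of all tested genes. Of those on the neuroligin side 12 were tested, 6 fell (50%) and 4 rose (33.3%). *Cask*, the kinase-like scaffold on the neurexin tail, had 80.3 and 82.8 CPM and did not pass the test (adjusted p = 0.566, edgeR). *Epb41l3* fell from 9.31 to 0.692 CPM, *Lin7a* from 11.9 to 1.57 CPM and *Apba1* from 1.14 to 0.350 CPM, and *Caskin1* rose from 3.48 to 5.88 CPM. *Dlg4*, the PSD-95 scaffold that binds neuroligins, fell from 20.6 to 10.2 CPM and *Dlg1* from 98.1 to 56.3 CPM, whereas *Dlgap1* rose from 0.422 to 0.752 CPM.

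Of 10 genes of kinesin subunits and their cargo proteins 7 were tested. Of these, 3 rose (42.9%) and 2 fell (28.6%), against 34.6% and 33.9% of all tested genes. Among the 5 kinesin subunits tested 1 rose and 2 fell. *Klc1*, the kinesin light chain that binds calsyntenin-1, fell from 134 to 119 CPM and *Kif5b* from 232 to 157 CPM. *Klc3* rose from 0.110 to 0.625 CPM, a low level, and 23.8% of its words are shared with *Ercc2*. All 10 proteases were tested, 6 rose and 1 fell, against 34.6% and 33.9% of all tested genes. *Ncstn*, a subunit of the gamma-secretase that cuts calsyntenins within the membrane, rose from 132 to 226 CPM. *Adam10*, a sheddase, had 258 and 278 CPM and did not pass the test (adjusted p = 0.127, edgeR), although it did without WT31_P5IV replicate 4 (adjusted p = 0.0326, edgeR), with upper-quartile scaling (adjusted p = 0.0438, edgeR) and with the replicate block (adjusted p = 0.0484, edgeR). *Bace1* fell from 118 to 68.7 CPM with 30.3% of its words shared. Of 7 splicing factors that act on neurexin RNA 6 were tested. Of these, 1 rose (16.7%) and 3 fell (50%), against 34.6% and 33.9% of all tested genes. *Khdrbs1* had 263 and 219 CPM, *Ptbp3* 131 and 98.8 CPM and *Ptbp2* 24.5 and 27.2 CPM. The *Ptbp2* rise was lost without WT31 replicate 3, WT31 replicate 5 or WT31_P5IV replicate 5, with edgeR adjusted p of 0.0552 to 0.0668. It was also lost without scaling beyond library totals (adjusted p = 0.197, edgeR) and without a filter (adjusted p = 0.244, edgeR).

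**Figure D4:**
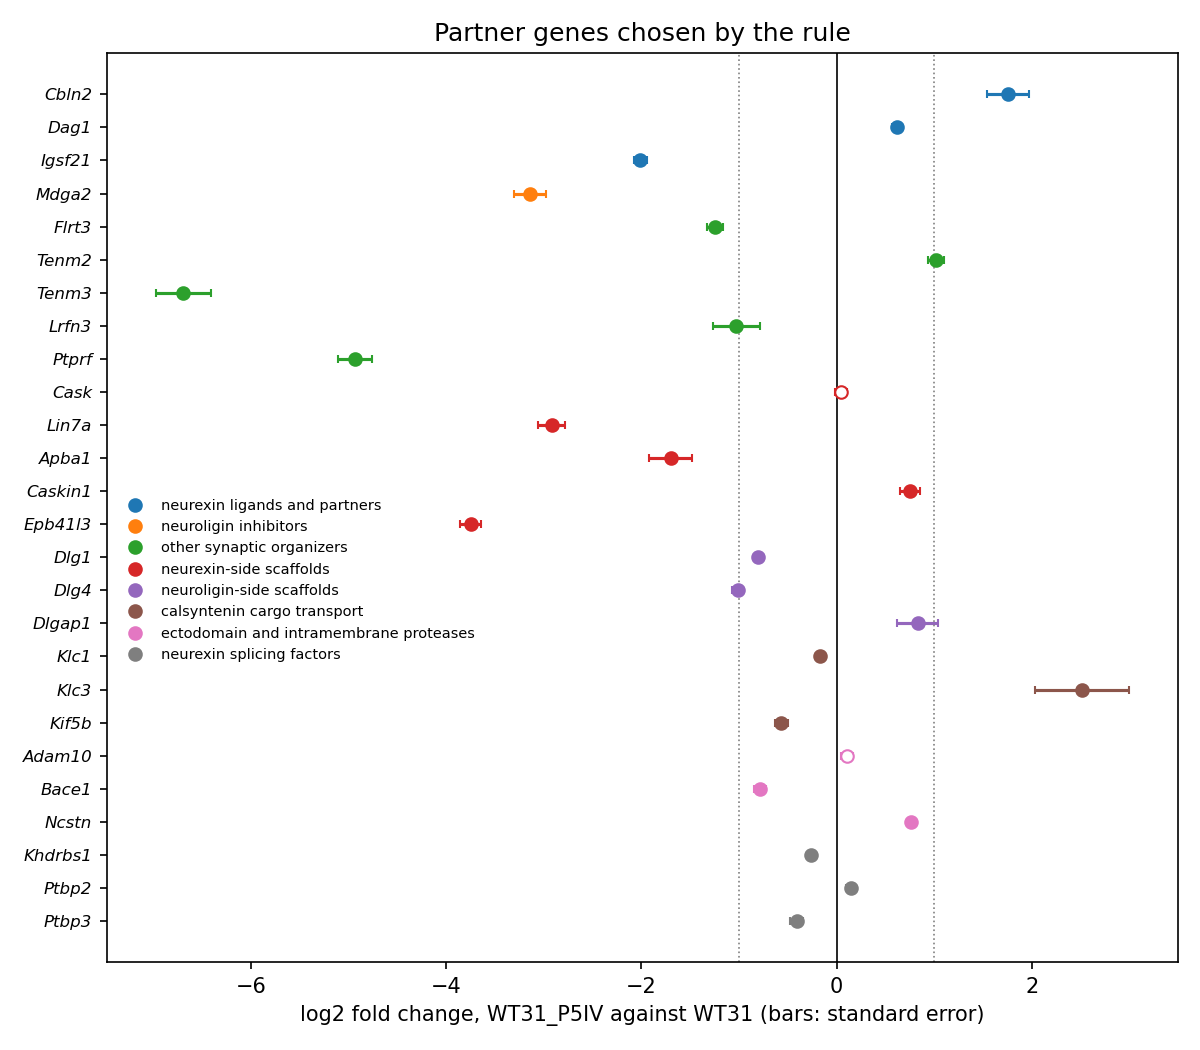
Log2 fold change of WT31_P5IV against WT31 for the partner genes named here, coloured by list, with the standard error as bars, dotted lines at a log2 fold change of 1 either way and open points for *Cask* and *Adam10*, which did not pass the test. Past these lines lie 3 genes that rose and 10 that fell, and the *Tenm3* point rests on at most 2 counts per WT31_P5IV library.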

How the data were processed

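RNA-seq of cultured WT31 and WT31_P5IV cells was used, with 5 libraries each. Reads had been trimmed with Trim Galore 0.6.4 and assigned to GRCm38.p6 transcripts with kallisto, per the submitters' processing notes, whose kallisto version differs from that in the study's methods. The authors deposited estimated counts and TPM, both summed per gene. The labels name sequencing protocols of 2 manufacturers. Symbols, positions and transcripts came from GENCODE M21, which holds 55144 of the 55385 identifiers, and the annotation release of the tables is not given in the sources used here.

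Estimated counts were rounded, filtered with filterByExpr, scaled by TMM and tested with edgeR 4.0.16 (glmQLFit, glmQLFTest) in R 4.3.3, with Benjamini-Hochberg adjustment over 13620 genes at 0.05. The test was tested on simulated data. The 8 genes and all lists were chosen with earlier results of these data known. Named genes were the 8, the called gene with the highest and lowest log2 fold change of each list, all list genes past a log2 fold change of 1, 7 fixed examples and the 3 genes most like *Clstn3*. Transcript lengths used genes with at least 200 estimated counts and 1 transcript of at least 1000 bases. Alternatives were DESeq2 1.42.0, limma 3.58.1 (voom, and log2(TPM + 0.1)), other scalings and filters, the replicate number as a block, and leaving out each library. Proteins and sequencing reads were not analysed here, and values of some list genes are not reported here.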

Additional observations from a re-analysis of the deposited data

Results flagged for a closer look

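In 63 groups of 5 libraries, 3 libraries of 2 genes lay apart from the rest of their group by Dixon's criterion, which chance meets in about 1 in 20 groups. *Nrxn2* stood at 0.201 CPM in WT31_P5IV replicate 3, against 0.0421 to 0.0858 CPM in the other 4, a matter of 5 counts against 1 or 2. *Epb41l3* stood at 10.6 CPM in WT31 replicate 5, against 8.82 to 9.14 CPM, and at 0.547 CPM in WT31_P5IV replicate 1, against 0.702 to 0.764 CPM.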

How the results depend on the processing

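*Clstn1*, *Clstn3* and *Nlgn2* were higher in WT31_P5IV under each alternative that could be fitted, and *Clstn3* could not be fitted with at least 10 counts in every library. With limma on log2(TPM + 0.1) their log2 fold changes were 0.92, 3.46 and 0.11, and without scaling beyond library totals that of *Clstn1* was 1.03. Leaving out each library in turn gave 1.07 to 1.12, 4.15 to 4.57 and 0.31 to 0.39. Genes past a log2 fold change of 1 numbered 1251, but 701 with at least 10 counts in every library and 2332 without a filter, and those of the partner lists numbered 13, but 6 with at least 10 counts. Without a filter *Nlgn3* had a log2 fold change of 1.98 (SE 0.52) and *Nrxn2* -0.77 (SE 0.63). Of 478 values of named partner genes 470 stayed on their side of the threshold, 5 lost a call (all *Ptbp2*, including without WT31 replicate 3, WT31 replicate 5 or WT31_P5IV replicate 5) and 3 gained one (all *Adam10*). No called value changed sign under these alternatives, but values that did not pass the test did, *Cask* in 4 settings (-0.03 at the lowest) and *Adam10* on log2(TPM + 0.1) (-0.07). With the replicate block 9380 genes were called, against 9327. Same-numbered libraries correlated at -0.10 to 0.18 and 2 of 5 matched best with their own number, so the numbers were not taken as pairs. Genes under about 3 counts per library are limited by depth.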
